A study of Caenorhabditis elegans with 14 samples.

Results

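The stage dependence of the daf-19 effect was measured as an interaction: the log2 difference between daf-19 mutants and their controls in adults, less the same difference in first-stage larvae (L1). All 14 of the 14 arrays of the series entered, in 4 groups set by their titles, and the interaction was fitted for all 22548 probe sets of the 22625 on the array that were not spiked or hybridisation controls. The mutant animals were labelled as carrying mutations in both daf-19 and daf-12, and the control animals in daf-12 alone, so every animal was a daf-12 mutant. The L1 groups had 4 arrays each and the adult groups 3 each. Per the labels' growth protocol the adults were taken 50 hours after L4, although their titles call them young adults. RNA came from whole worms, and the daf-19 allele is not named. A positive interaction means that the mutant stood higher against its control in adults than at L1, either because a gene that fell at L1 did not fall in adults or because it rose in adults. In whole worms, fewer cells of a type and less RNA per cell cannot be told apart.

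DAF-19 is the RFX transcription factor of C. elegans. It binds a promoter motif, the X-box, of genes needed for the sensory cilium, the antenna-like organelle of ciliated sensory neurons, and without it these cilia do not form. Cilia are built by intraflagellar transport (IFT), in which kinesin motors carry the IFT-A and IFT-B particles and the BBSome to the tip and cytoplasmic dynein brings them back. Longer and shorter DAF-19 proteins exist, and daf-12 encodes a nuclear hormone receptor that acts in the choice between growth and the dauer larva.

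The values were deposited log2 signals. The level of a gene at a stage was taken as the higher of its 2 genotype means, and a gene was called bright at a stage when that level lay at or above the median level of the probe sets of that stage. A rank is the percent of probe sets that lay below it. The files carry no detection calls, so "dim" means below that median and not absence. Medians of the L1 arrays were 4.72 to 4.76 and those of the adult arrays 5.91 to 6.02, and the adult levels spread over an interquartile range 1.4 times that of L1, so the stages do not share a scale. Other features of the arrays move with the groups. The 3' minus 5' signal of the Gapdh control probe sets, a measure of RNA and labelling quality, was 3.83 to 4.12 in L1 mutants, 3.16 to 3.83 in L1 controls and -0.54 to -0.36 in adults, so that stage and labelling cannot be told apart. Adult control array 1 stood apart from the other adult controls: of 168 genes whose adult mutants lay at least 1 log2 unit below adult control arrays 2 and 3, array 1 was nearer to the mutants for 129 (76.8%), whereas the same count was 3.17% for control array 2 and 9.68% for control array 3. Its daf-19 signals nevertheless lay with the controls (8.28 and 7.35 for 2 probe sets). Selected results are given with and without this array.

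The daf-19 transcript itself did not differ in its change between the stages by this test. In the dimmer of its 2 probe sets, L1 mutants read 6.08, 6.02, 6.08 and 5.77 and L1 controls 6.77, 6.89, 6.64 and 6.42. Adult mutants read 6.68, 6.65 and 6.76 and adult controls 7.35, 7.24 and 7.42. At both stages each mutant array lay below each control array. The transcript fell at L1 by 0.69 (95% interval -0.91 to -0.47, limma adjusted p = 0.00281) and in adults by 0.64 (-0.89 to -0.39, adjusted p = 0.0163), and the interaction was 0.05 (-0.28 to 0.39, adjusted p = 0.989). For the brighter set the L1 effect was -0.70 (adjusted p = 0.0125), while its adult difference of -0.56 (-0.87 to -0.25) did not pass (adjusted p = 0.105; 0.012 with the replicate block), and its interaction was 0.13 (-0.28 to 0.55, adjusted p = 0.96). The adult call of the dimmer set was lost on dropping any of the adult mutants (arrays 1 to 3: adjusted p = 0.0776, 0.0734 and 0.0517) or control 3 of the adults (0.0848). It was also lost after joint quantile normalization (0.184) and with the spread of signals equalised between stages (0.154), and both L1 calls were lost with the Gapdh signal as a covariate (0.087 and 0.219). None of the 3 daf-12 probe sets had a called interaction (-0.22, 0.10 and -0.08).

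The interaction passed an adjusted p of 0.05 (Benjamini-Hochberg over all probe sets) for 206 probe sets, 0.914% of those tested, 105 higher and 101 lower. With the replicate number as a block at both stages 184 were higher and 236 lower, and with the block at L1 only 179 and 153. Leaving out single arrays moved the counts by more than 1.5 times for control 1 of the adults (147 higher and 415 lower), control 2 (49 and 42), control 3 (54 lower), mutant 1 (61 lower), mutant 2 (64 and 64) and mutant 3 (58 and 64), and for control 3 of the L1 arrays (67 lower). The Gapdh covariate left 56 higher and 41 lower. Taking the brightest probe set of each of 17118 genes, 90 genes had a positive interaction (0.526%) and 77 a negative one (0.45%). For comparison, 142 genes fell at L1 (0.83%) and 66 rose (0.386%), and 119 fell (0.695%) and 63 rose (0.368%) in adults. Across genes the L1 and adult effects had a correlation of -0.0031 (17118 genes, which are not independent, and 4 groups of arrays), and of -0.0158 among genes bright at both stages. The standard error of an interaction had a median of 0.163, against 0.107 for an L1 effect and 0.123 for an adult effect, so that a gene called at 1 stage alone is not by that shown to differ between stages. Of the 142 genes that fell at L1, 50 had a called interaction and 92 did not. Of the 119 that fell in adults, 52 did and 67 did not.

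**Figure D1:**
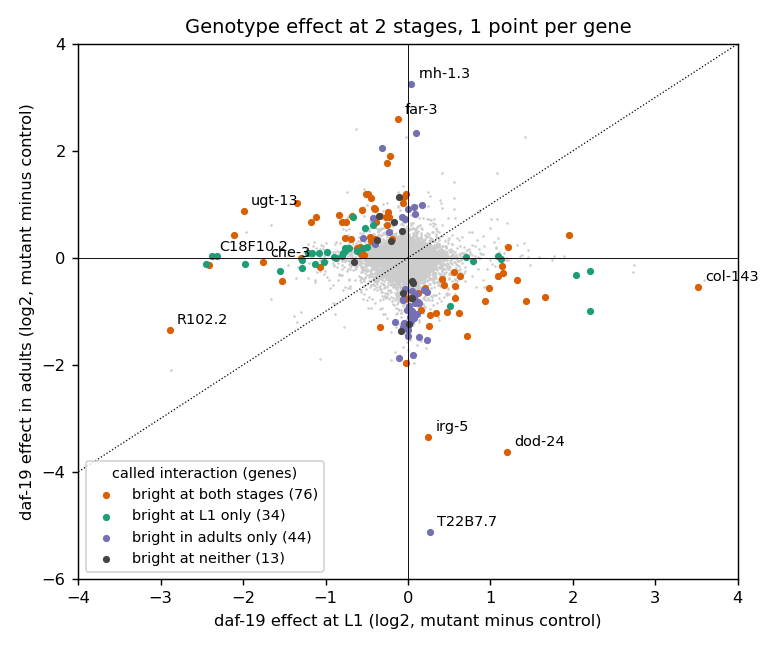
Mutant minus control signal (log2) at L1 on the horizontal axis and in adults on the vertical axis, 1 point per gene, with the 167 genes of called interaction coloured by whether they were bright at each stage. Most coloured points lie near 1 of the 2 axes, with col-143 far to the right, rnh-1.3 at the top and T22B7.7 at the bottom. The coloured genes were chosen by a called interaction, so they cannot lie on the dotted line of equal effects.

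Signal level at both stages divided these calls unevenly. As the level is the higher genotype mean, an effect can itself place a gene in a bright class. The shares below are therefore partly set by that definition. Genes bright at both stages were 38.9% of all genes and 45.5% of the calls: 76 of 6651 were called (1.14%), 44 higher and 32 lower. Genes bright at L1 only had 34 calls among 2011 (1.69%), of which 26 were higher and 8 lower, and genes bright in adults only had 44 among 1740 (2.53%), of which 13 were higher and 31 lower. Genes bright at neither stage had 13 calls among 6716 (0.194%). Thus 54.5% of the called genes were dim at 1 or both stages. Regardless of sign, the called interactions had a median of 1.33 log2 units among genes bright at both stages, 1.09 among those bright at L1 only, 1.01 in adults only and 0.71 at neither. Over all genes of each class, called or not, the order differed, with medians of 0.154, 0.176, 0.133 and 0.0917. The percent of calls that were dim moved to 27.5 when every level above the lower quartile counted as bright and to 74.3 when only the upper tercile did.

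**Figure D2:**
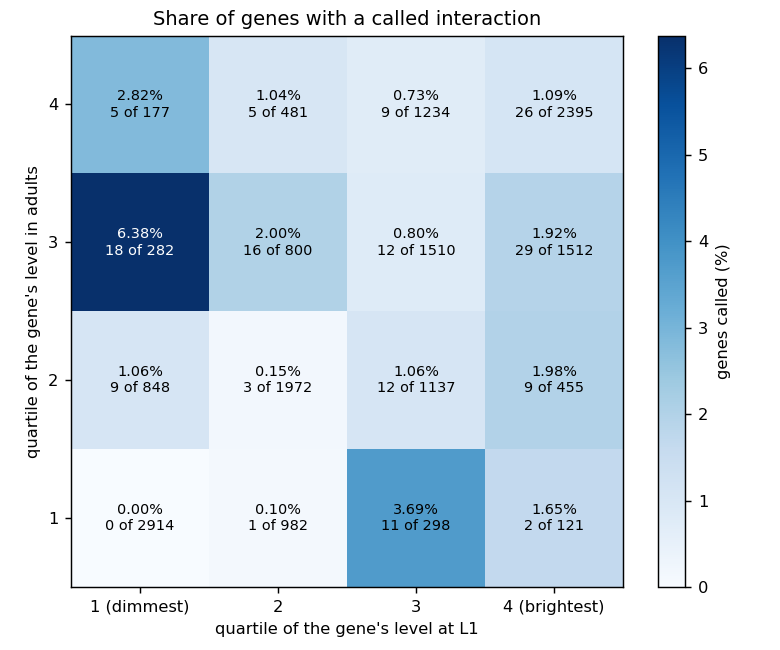
Percent of genes with a called interaction by quartile of the gene's level at L1 (horizontal) and in adults (vertical), with the number called and the number of genes in each cell. The darkest cell holds genes in the dimmest L1 quartile and the third adult quartile (6.38%, 18 of 282), and the cell dimmest at both stages has 0 of 2914.

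Most called interactions came from a call at 1 stage alone. Of the 167 genes, 46 fell at L1 only, 20 rose at L1 only, 51 fell in adults only and 30 rose in adults only. A further 16 had no call at either stage, 3 were called in opposite directions at the 2 stages and 1 was called in the same direction at both. The 46 genes that fell only at L1 had a median effect of -0.94 at L1 and of 0.09 in adults, and 24 of them were bright at L1 only. The 51 that fell only in adults had a median of -1.04 in adults and 0.05 at L1, and 31 of them were bright in adults only. These genes were chosen by a called interaction and by a call at 1 stage alone, so their medians at the other stage are partly set by that choice. Over all 142 genes that fell at L1 the adult median was -0.02, and 78 had the same sign in adults. Over all 119 that fell in adults the L1 median was -0.01, and 64 had the same sign at L1.

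A gene near the bottom of the scale at 1 stage can show little fall there. Room to fall was therefore set as the control level at the other stage less a lower decile, a measure chosen after the values were seen. The decile was that of the probe set means over all arrays of that stage (3.99 in adults, 3.34 at L1). For 28 of the 46 genes that fell only at L1, the adult control had room for a fall of the size seen at L1, with a median room of 1.56. For 15 of the 51 genes that fell only in adults, the L1 control had such room, with a median of 0.43. For the other 18 and 36 genes a fall of equal size would have ended below that decile. The decile is not a hard floor, since some signals lie under it, so these counts sort genes by how low their signal was and do not say that a fall could not show. Whether the genes of low room depend on daf-19 at their dim stage was not tested.

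Genes of the sensory cilium had interactions in 1 direction. On 6 lists covering IFT-A, IFT-B, the IFT motors, the BBSome and ciliary GTPases, the transition zone at the cilium base, and other X-box or ciliary genes, 70 genes were measured, and 10 had a positive interaction and 0 a negative one, against 0.526% and 0.45% of all genes. At an unadjusted limma p of 0.05, 28 were higher and 4 lower, beside 841 and 770 of all 17118 genes. At L1, 22 of the 70 fell and 2 rose, and in adults 0 were called (3 lower and 2 higher at the unadjusted threshold), with a median adult effect of 0.01 against 0.03 over all genes. The median interaction was 0.20 over the 70 genes, against 0.02 over all genes, and 0.12 over the 16 that were bright at both stages, against 0.00 over all genes bright at both. Without adult control array 1, 10 were again higher and 2 fell in adults, klp-11 and xbx-9. On dropping mutant 1 or 2 or control 2 of the adults, 6 were higher in each case. With dim probe sets left out 5 were higher and 10 fell at L1, and with the Gapdh covariate 14 fell at L1. Of the 22 genes that fell at L1, 5 were bright in adults, and 4 of those 5 had a called interaction. The other 17 were dim in adults, and 6 of those had one. The same direction of effect in adults was seen in 13 of the 22.

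The gene che-3, which encodes the heavy chain of the dynein that runs retrograde IFT, showed the difference at a readable level at both stages. L1 mutants read 5.70, 5.78, 5.74 and 5.41 and L1 controls 7.43, 7.39, 7.42 and 7.41. Adult mutants read 6.47, 6.27 and 6.49 and adult controls 6.44, 6.49 and 6.55. The L1 groups were far apart, and the adult groups overlapped. The gene fell at L1 by 1.75 (-1.94 to -1.57) and differed by -0.08 (-0.30 to 0.13) in adults, so the adult interval excludes a fall of the L1 size, and the interaction was 1.67 (SE 0.13, adjusted p = 1.26e-05). Its adult control level of 6.49 stood further above the adult lower decile (3.99) than the L1 fall was deep.

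The IFT-A gene ifta-1 had the same pattern, at 70.3% of the ranks at L1 and 55.6% in adults. L1 mutants read 4.95, 5.20, 5.16 and 4.81 against 6.20, 6.40, 6.58 and 6.14 in controls, and adult mutants 6.65, 6.60 and 6.34 against 6.55, 6.47 and 6.55. The adult groups overlapped, with a difference of 0.01 (-0.28 to 0.29), and the interaction was 1.31 (SE 0.17, adjusted p = 0.00165). The X-box gene xbx-9 was the third, but with a partial difference. L1 mutants read 5.71, 6.02, 5.75 and 5.77 against 7.58, 7.07, 7.32 and 7.37, and adult mutants 5.95, 6.04 and 5.82 against 6.10, 6.44 and 6.55. Every xbx-9 mutant array lay below every control array at both stages. Its interaction was 1.10 (SE 0.18, adjusted p = 0.00981) beside an adult effect of -0.43 (adjusted p = 0.265), which without adult control array 1 became a called fall of 0.56 (adjusted p = 0.0444) with an interaction of 0.96 (adjusted p = 0.00844).

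Other ciliary genes were called at adult levels that leave little room. In bbs-1, which encodes a BBSome subunit, L1 mutants read 3.95, 4.33, 4.36 and 4.06 against 5.17, 5.35, 5.50 and 5.01 in controls, and adult mutants 4.68, 4.69 and 4.54 against 4.60, 4.39 and 4.63. The adult groups overlapped, at 25.8% of the adult ranks and with 0.55 of room for an L1 fall of 1.08, and the interaction was 1.18 (adjusted p = 0.00452). The X-box gene xbx-3 (0.95, adjusted p = 0.0102) and the IFT-A gene ift-139 (1.03, adjusted p = 0.00493) stood likewise at 27.6% and 27.1% of the adult ranks. A dimmer probe set of ift-139 gave an interaction of -0.09 (adjusted p = 0.975).

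The other called ciliary genes had adjusted p-values near the threshold, which many single arrays moved past it while the interactions changed little. They were che-2 (0.83) and osm-5 (0.72) of the IFT-B particle, the tubulin glutamylase gene ttll-11 (0.74) and the transition zone gene jbts-14 (0.59). The osm-5 call, the only one of them bright at both stages, was lost on dropping control 2 of the L1 arrays (adjusted p = 0.0513), control 2 of the adults (0.0841) or any adult mutant (0.0591 to 0.0694). That of che-2 was lost on dropping L1 mutants 3 or 4 (0.0548, 0.0642), L1 controls 2 or 4 (0.0694, 0.0556), control 2 of the adults (0.102) or any adult mutant (0.0661 to 0.094). For jbts-14 the same held of L1 mutants 2 or 3 (0.0519, 0.0666), L1 controls 2 or 3 (0.0684, 0.068), control 2 of the adults (0.0924) and each adult mutant (0.0776 to 0.0937). For ttll-11 it held of each L1 mutant (0.0531 to 0.0674), L1 controls 3 or 4 (0.0799, 0.0667), mutants 1 or 2 (0.0865, 0.105) and controls 2 or 3 (0.132, 0.0873) of the adults. Over these losses the interaction stayed between 0.70 and 0.74 for osm-5, 0.75 and 0.87 for che-2, 0.54 and 0.60 for jbts-14 and 0.67 and 0.76 for ttll-11. A dimmer probe set of jbts-14 gave an L1 effect of -0.125 and an interaction of 0.20 (adjusted p = 0.809). A dimmer probe set of osm-5 also fell at L1 (limma adjusted p = 0.00845). That set was dim in adults, at 13.68% of the ranks, and its interaction of 0.65 was not called (adjusted p = 0.124). With the Gapdh signal as a covariate, osm-5 (0.127), che-2 (0.159) and jbts-14 (0.23) also lost their calls. Their interactions were then 0.71, 0.82 and 0.48, and the L1 call of osm-5 was lost as well (limma adjusted p = 0.0927).

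**Figure D3:**
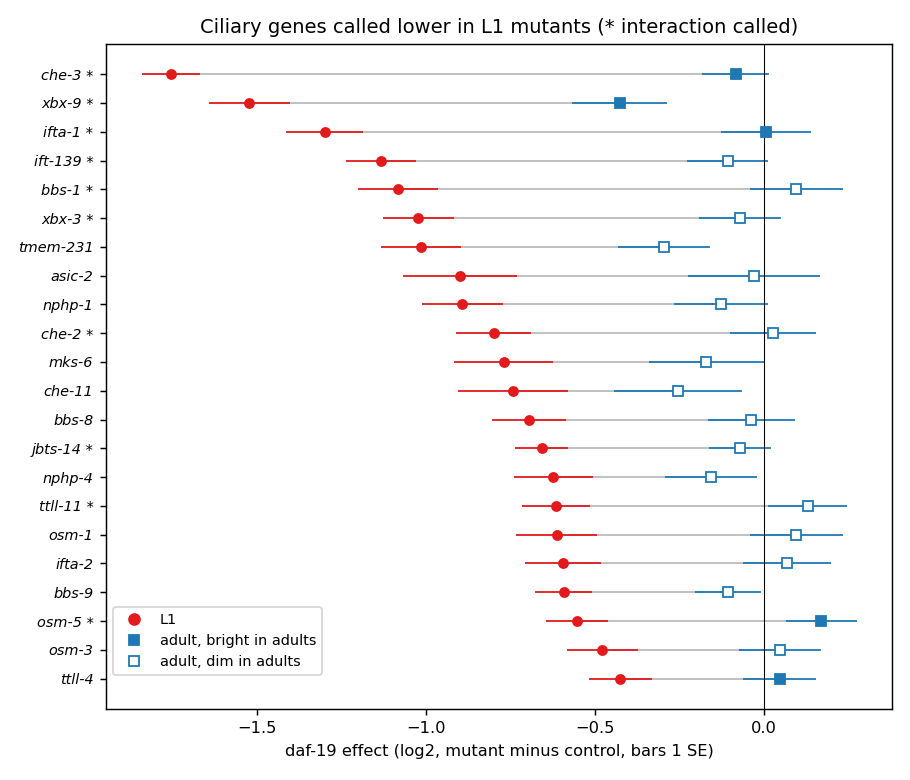
Mutant minus control signal (log2, bars 1 SE of the limma fit) at L1 (circles) and in adults (squares, filled where the gene was bright in adults) for the 22 ciliary genes that fell at L1. The adult squares lie between -0.43 (xbx-9) and 0.17 (osm-5), and 5 of the 22 squares are filled.

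The 12 ciliary genes that fell at L1 without a called interaction are not shown to act alike at both stages. Of these, nphp-1 (0.77, adjusted p = 0.0744) and ifta-2 (0.67, adjusted p = 0.108) were called with the replicate block (0.0225 and 0.0443), which gave 12 ciliary interactions. The largest of these L1 falls was that of tmem-231 of the transition zone (-1.02), with an adult effect of -0.30 and an interaction of 0.72 (adjusted p = 0.0966). The kinesin gene osm-3 had an interaction of 0.52 (adjusted p = 0.202) and the tubulin glutamylase gene ttll-4, the brightest of the 22 in adults, one of 0.47 (adjusted p = 0.191). Both ciliary genes that rose at L1 leaned the same way in adults. The IFT-B gene dyf-11 rose by 1.20 at L1 and stood 0.65 higher in adults (adjusted p = 0.0784; interaction -0.55, adjusted p = 0.396), and the ciliary GTPase gene arl-13 rose by 0.86 and stood 0.17 higher (interaction -0.69, adjusted p = 0.249).

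Markers of the cells concerned were compared within each stage. Over 6 markers of ciliated neurons, che-3 and bbs-1 among them, the mean signal was 4.92 to 5.30 in L1 mutants and 5.58 to 5.77 in L1 controls, and 5.19 to 5.30 in adult mutants and 5.14 to 5.28 in adult controls. Markers of other neurons lay at 8.77 to 9.03 in L1 mutants and 8.96 to 9.14 in L1 controls, and at 6.36 to 6.59 and 6.46 to 6.60 in adults. The ciliated-neuron means of the genotypes were apart at L1 and overlapped in adults. Of these markers only che-3 (-1.755) and bbs-1 (-1.08) were called at L1, and both are among the called interactions above. The others were not called at L1: osm-6 (-0.10), osm-9 (-0.14), odr-10 (-0.56) and tax-4 (0.175). The means therefore largely repeat the results of che-3 and bbs-1. The part of cell number in the interactions was not tested.

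Genes bright at L1 only held further large interactions. The gene cwp-4, named for coexpression with the polycystin genes of ciliated neurons, read 5.18, 5.34, 5.48 and 5.45 in L1 mutants and 7.24, 7.30, 7.53 and 7.27 in L1 controls. In adults it read 4.41, 4.59 and 4.33 in mutants and 4.43, 4.46 and 4.77 in controls. It fell at L1 by 1.97, the adult groups overlapped, and the interaction was 1.86 (SE 0.16, adjusted p = 2.89e-05) with 0.56 of room in adults. Its list of 9 polycystin and coexpressed genes did not share the fall. Of the 9, 1 had a positive and 0 a negative interaction, and 1 fell and 0 rose at L1. The list medians were -0.005 for the L1 effect and 0.12 for the interaction. At the unadjusted limma threshold used for the other lists, 1 was lower and 2 higher at L1, and 2 interactions were higher and 0 lower. C18F10.2 fell at L1 from 5.57 to 5.97 in controls to 3.35 to 3.52 in mutants and read 4.33 to 4.55 in all 6 adult arrays (interaction 2.40, adjusted p = 2.77e-07), with 0.40 of room in adults. The interactions of ddn-2 (2.35, adjusted p = 0.000106) and of clec-194, which encodes a C-type lectin domain, (2.34, adjusted p = 3.19e-05) stood on L1 effects of -2.31 and -2.45 and on adult levels at 5.82% and 18.02% of the ranks.

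Rises at L1 in genes dim in adults gave negative interactions. Whether a rise of the same size could show at those adult signals was not tested. The gene nssp-55 rose at L1 by 2.22 and differed by -0.25 (-0.69 to 0.20) in adults, an interaction of -2.46 (adjusted p = 0.000432). The lectin domain gene clec-10 had an interaction of -3.21 (adjusted p = 0.00332), and -2.17 (adjusted p = 0.00251) in its second probe set. It lay only just below the adult median, at 49.7% of the ranks, and the second probe set was bright at both stages. In adults every clec-10 mutant array lay below every control array, by a mean of 0.99 that was not called (adjusted p = 0.366). Y105C5A.15 had one of -1.15 (adjusted p = 0.00185), but -0.27 (adjusted p = 0.767) and 0.04 (adjusted p = 0.992) in its 2 other probe sets. Of 220 lectin domain genes measured, 3 were higher and 2 lower (against 0.526% and 0.45% of all genes), but at an unadjusted limma p of 0.05, 3 were higher and 21 lower.

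Cuticle collagen genes moved in both directions at L1, more of them down than up, and in neither direction by call in adults. Of 128 col genes, which encode the collagens of the larval and adult cuticle, 4 had a positive and 4 a negative interaction, against 0.526% and 0.45% of all genes, while 18 fell and 4 rose at L1 and 0 were called in adults by limma (32 lower and 0 higher at an unadjusted p of 0.05). At that unadjusted threshold 65 were lower and 5 higher at L1, and 9 interactions were lower and 15 higher. The median L1 effect of the list was -0.27, against 0.005 over all genes. The gene col-143 read 9.98, 9.95, 9.44 and 9.08 in L1 mutants and 6.28, 6.04, 6.37 and 5.67 in L1 controls. Adult mutants read 12.05, 11.99 and 12.22 and adult controls 12.61, 12.67 and 12.60. The mutants lay above the controls at L1 and below them in adults in every array. Its adult level lay at 98.6% of the ranks, near the top of the scale, where a further rise could show less. It rose at L1 by 3.52 (3.13 to 3.92), the adult difference of -0.54 (-1.0 to -0.08) did not pass (adjusted p = 0.468), and the interaction was -4.06 (SE 0.28, adjusted p = 2.94e-06).

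The interactions of col-122 (-1.74, adjusted p = 0.00237) and col-181 (-1.55, adjusted p = 0.00157) had the same shape, with L1 rises of 1.33 and 0.98. The adult levels of col-122 and col-181 lay likewise at 99.9% and 99.0% of the ranks. In the other direction, col-176 fell by 2.41 at L1 and differed by -0.14 (-0.62 to 0.35) in adults at an adult control level 3.31 above the lower decile (interaction 2.28, adjusted p = 0.00149). The gene col-141, dim in adults, had an interaction of 1.30 (adjusted p = 0.00087). The calls of col-142 and col-20 were fragile. The first (2.53) was lost on dropping any single array (adjusted p 0.0527 to 0.117) except L1 mutant 1, L1 control 2 and adult control 1, and in 3 other alternatives (0.0508 to 0.0657). The second (-2.24) was lost on dropping any single array (0.0518 to 0.135) except L1 control 4, adult mutant 3 and adult control 1, with trended robust variances (0.0581) and with the Gapdh covariate (0.197). Without adult control array 1, 4 col genes were higher, 7 were lower and 19 fell in adults.

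On a list of 43 lysozyme, CUB-like and antimicrobial genes, 3 had a negative and 1 a positive interaction, against 0.45% and 0.526% of all genes. At an unadjusted limma p of 0.05 the list went both ways, with 8 lower and 7 higher. The infection response gene irg-5 read 7.24, 7.43 and 7.03 in adult mutants and 10.75, 10.68 and 10.29 in adult controls. At L1 it read 4.92, 5.29, 4.92 and 5.04 in mutants and 4.81, 4.97, 4.57 and 4.83 in controls. The adult groups stood apart and the L1 groups overlapped. It fell in adults by 3.34 (-3.66 to -3.02), and the interaction was -3.59 (SE 0.20, adjusted p = 2.77e-07), or -3.50 without adult control array 1. Its L1 control level had 1.46 of room, less than the adult fall, but the L1 difference of 0.25 (-0.03 to 0.52) was of the other sign.

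The gene dod-24, a member of the CUB-like genes that respond to infection and lie downstream of DAF-16, read 7.48, 6.43 and 6.35 in adult mutants and 11.18, 10.35 and 9.59 in adult controls. L1 mutants read 7.25, 8.59, 8.71 and 8.54 and L1 controls 6.69, 7.05, 6.98 and 7.58. The adult groups stood apart, and the L1 groups overlapped through mutant array 1. It fell in adults by 3.62 and differed by 1.20 (adjusted p = 0.196, but a called rise at 0.0065 with the replicate block at both stages) at L1, where its level left 3.74 of room, and its interaction of -4.82 (SE 0.57, adjusted p = 0.000725) was -4.41 without adult control array 1. The related dod-22, dim at L1, had one of -1.77 (adjusted p = 0.000699).

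The largest interaction in either direction among the named genes was that of T22B7.7. Adult mutants read 4.76, 4.88 and 4.32 and adult controls 10.41, 9.78 and 9.14, while all 8 L1 arrays read between 3.42 and 3.76. The adult effect of -5.12 was thus set against an L1 signal at 22.7% of the ranks with 0.11 of room, and the interaction of -5.39 (SE 0.30, adjusted p = 2.77e-07) does not say whether the gene would fall at L1 if expressed. K07C11.7 gave the opposite case, at 97.0% of the ranks at L1 and 92.1% in adults. L1 mutants read 10.46, 10.40, 10.54 and 10.53 and L1 controls 10.63, 10.45, 10.46 and 10.48, whereas adult mutants read 8.41, 8.87 and 8.59 and adult controls 10.05, 10.94 and 10.79. The L1 groups overlapped, with a difference of -0.02 (-0.36 to 0.31), and the adult groups did not. Its interaction was -1.95 (SE 0.24, adjusted p = 0.00087), and -2.195 (adjusted p = 0.000106) in its second probe set.

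**Figure D4:**
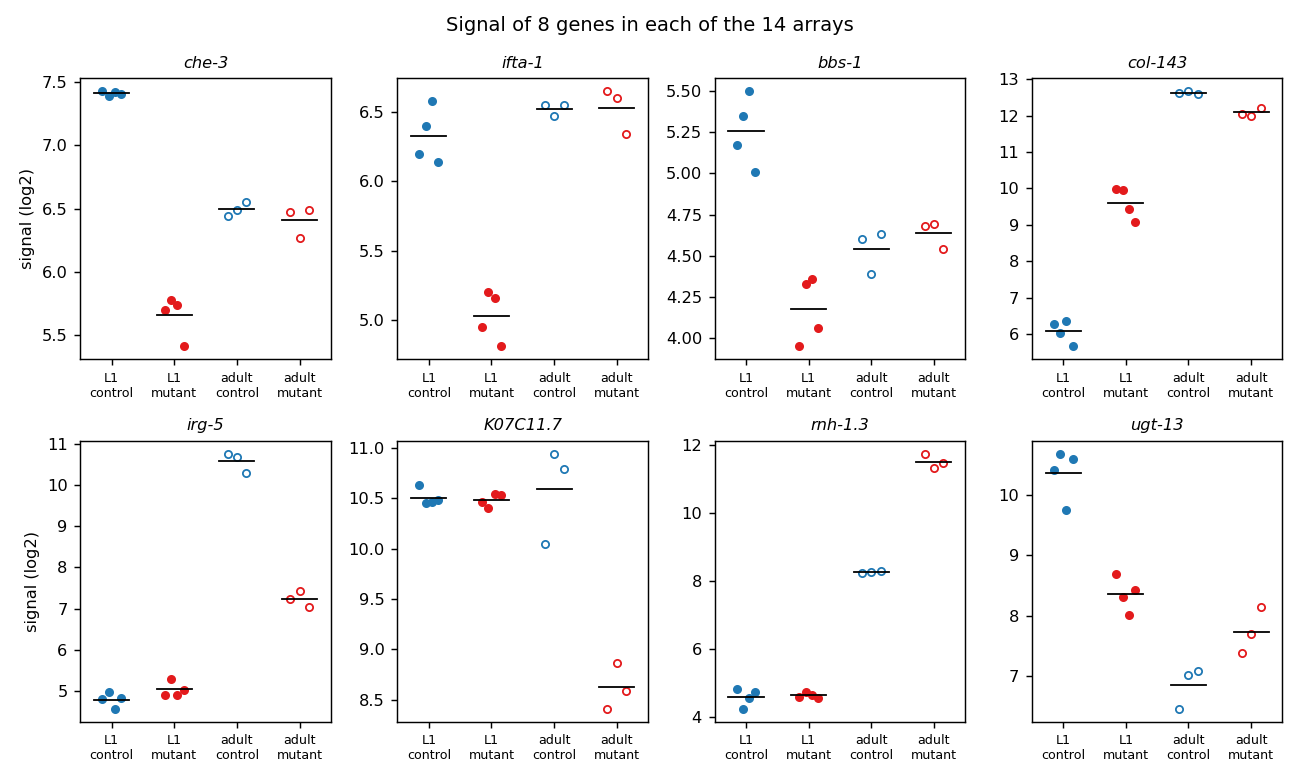
Log2 signal of 8 genes in each array (points, controls blue, mutants red, adult arrays open) with the group mean (line); the vertical axes differ between panels and do not start at 0. The genotypes separate at L1 for che-3, ifta-1 and bbs-1 and overlap in adults, the reverse holds for irg-5, K07C11.7 and rnh-1.3, and for col-143 and ugt-13 the order of the genotypes turns between stages.

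Rises confined by call to adults included genes bright at both stages. The gene far-3, which encodes a fatty acid and retinol binding protein, read 9.63, 9.70 and 10.33 in adult mutants and 7.73, 7.19 and 6.95 in adult controls, and at L1 8.97, 7.92, 8.22 and 8.41 in mutants and 8.77, 8.39, 8.38 and 8.47 in controls. The adult groups stood apart, the L1 groups overlapped, and the interaction was 2.72 (SE 0.34, adjusted p = 0.000984). F59A7.2 (2.12, adjusted p = 4.25e-05), the UDP-glucuronosyltransferase gene ugt-64 (1.70, adjusted p = 0.00238) and sdz-24, named as a SKN-1-dependent zygotic transcript (2.03, adjusted p = 0.00497), rose in adults by 1.91, 1.19 and 1.78.

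Among genes bright in adults only, rnh-1.3, named as an RNase H gene, read 11.74, 11.31 and 11.48 in adult mutants and 8.22, 8.25 and 8.28 in adult controls, and 4.23 to 4.82 in the 8 L1 arrays. The adult groups stood further apart than any L1 arrays did. It rose in adults by 3.26, and the interaction was 3.22 (SE 0.18, adjusted p = 2.77e-07). F49E11.2 rose in adults by 2.34 with an interaction of 2.23 (adjusted p = 9.6e-07). The L1 differences of rnh-1.3 (0.04, -0.21 to 0.30) and F49E11.2 (0.10, -0.10 to 0.30) were measured at low L1 signal.

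Transcripts of the early embryo, which adult hermaphrodites carry in their uterus, were among the adult falls. Of 47 early zygotic genes, 9 fell and 1 rose in adults and 0 were called at L1 (3 lower and 1 higher at an unadjusted limma p of 0.05), and 4 had a negative and 1 a positive interaction (against 0.45% and 0.526%), with a median interaction of -0.09 over the list. The early zygotic gene pes-10 read 5.0, 5.19 and 5.53 in adult mutants and 6.29, 6.31 and 6.24 in adult controls, and 3.00 to 3.35 in the 8 L1 arrays, at 5.34% of the L1 ranks. The adult groups did not overlap, the L1 signal left no room for a fall, and the interaction was -1.15 (adjusted p = 0.00265). The gene sdz-30 (-1.25, adjusted p = 0.00214) was dim at both stages, at 0.39% of the L1 ranks, and vet-6 at L1, at 22.5% (-1.34, adjusted p = 0.0138; 0.0577 without adult control array 2 and 0.0714 with the Gapdh covariate). Without adult control array 2 the list had 2 negative interactions. With the replicate block it had 7.

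F-box genes, whose products recruit proteins for ubiquitin ligases, had 4 negative and 1 positive interaction among 310 (against 0.45% and 0.526% of all genes), and 11 fell in adults (against 0.695%). At an unadjusted limma p of 0.05, 43 interactions were lower and 15 higher. In fbxa-72, adult mutants read 5.92, 5.54 and 6.13 and adult controls 7.09, 7.58 and 7.29, with 3.64 to 3.89 in all L1 arrays. The adult groups did not overlap, and the interaction was -1.45 (adjusted p = 0.00149). Without adult control array 1, 16 F-box genes were lower and 3 higher (against 1.75% and 0.724%). Y51H7C.1, bright in adults only, had an interaction of -1.77 (adjusted p = 0.00239). Over 5 oocyte and embryo markers (rme-2, puf-5, cbd-1, pos-1 and egg-1), adult mutant means were 12.96 to 13.03 and adult control means 12.81 to 13.05. None of these markers is on the early zygotic list, and the part of embryo number or age in these falls was not tested.

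Genes of detoxification had interactions in both directions, 5 positive and 2 negative among 177 (against 0.526% and 0.45% of all genes), and 32 were higher and 12 lower at an unadjusted limma p of 0.05. In ugt-13, a UDP-glucuronosyltransferase gene, L1 mutants read 8.70, 8.31, 8.02 and 8.43 and L1 controls 10.41, 10.68, 9.75 and 10.59, while adult mutants read 7.38, 7.70 and 8.14 and adult controls 6.46, 7.03 and 7.08. The mutants lay below the controls in every L1 array and above them in every adult array. It fell at L1 by 1.99, stood 0.88 higher in adults (0.34 to 1.43, adjusted p = 0.168, but called at 0.00876 with the replicate block at both stages), and had an interaction of 2.88 (SE 0.34, adjusted p = 0.000699). The glutathione transferase gene gsto-1, which is not on that list, had the same shape. It fell by 1.11 at L1, with an adult difference of 0.77 (adjusted p = 0.154) and an interaction of 1.88 (adjusted p = 0.00452). Its L1 call was lost with the Gapdh covariate (limma adjusted p = 0.087). The adult fall of ugt-4 (-0.84, interaction -0.93, adjusted p = 0.00122) was set against an L1 signal at 16.7% of the ranks.

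Called effects of opposite sign at both stages were found for 3 genes. The globin gene glb-1 read 11.48, 11.54, 11.27 and 11.41 in L1 mutants and 11.83, 11.71, 11.85 and 11.97 in L1 controls, and 11.49, 11.62 and 11.85 in adult mutants and 10.73, 10.77 and 10.67 in adult controls. The groups did not overlap at either stage, with mutants lower at L1 and higher in adults. The interactions of glb-1 (1.34, SE 0.14, adjusted p = 0.000206), F44A2.3 (1.46, adjusted p = 0.0029) and the serpin gene srp-3 (1.43, adjusted p = 0.000984) were kept under all alternatives, but their stage calls were not. The L1 call of glb-1 (-0.41) was lost on dropping mutant or control 1, 3 or 4 of the L1 arrays, mutant 2 of the adults or any adult control (0.0515 to 0.141), and in 4 other alternatives, the replicate block among them (0.0615). The L1 call of F44A2.3 (-0.68) was lost on dropping mutants 2, 3 or 4 or controls 3 or 4 of the L1 arrays (0.0665 to 0.0898) and with the Gapdh covariate (0.11). Its adult call (0.78) was lost on dropping any adult mutant or controls 2 or 3 of the adults (0.0687 to 0.159) and with the spread equalised between stages (0.232). The adult call of srp-3 (0.76) was lost on dropping mutants 1 or 3 or controls 2 or 3 of the adults (0.0623 to 0.0803) and with the spread equalised (0.08), and its L1 call with the Gapdh covariate (0.0538).

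The 1 gene called in the same direction at both stages with a called interaction was R102.2, named here after its values were seen. L1 mutants read 7.91, 7.96, 7.47 and 7.87 and L1 controls 10.70, 10.51, 10.61 and 10.95, and adult mutants 6.50, 6.28 and 6.38 and adult controls 6.98, 7.97 and 8.24. Mutants lay below controls at both stages, by 2.89 at L1 and 1.34 in adults, with adult control array 1 nearest to the mutants. The interaction of 1.55 (adjusted p = 0.0364) was lost on dropping mutants 3 or 4 of the L1 arrays, any L1 control, any adult mutant or control 2 of the adults (0.053 to 0.106), and with the Gapdh covariate (0.0926). The adult call was lost on dropping mutants 2 or 3 or controls 2 or 3 of the adults (0.063 to 0.0914) and with the spread equalised (0.0516). Without adult control array 1 both were called by limma. The adult effect was then -1.72 (adjusted p = 2.45e-05) and the interaction 1.17 (adjusted p = 0.00551).

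On 17 of the 35 lists, holding 716 genes, 0 interactions were called by limma, and 24 were higher and 16 lower at an unadjusted p of 0.05, together 5.59% against 9.41% of all genes. They cover synapse, sensory transduction, transmitter synthesis, guanylyl cyclases, glia, moulting, furrow and body-shape collagens, yolk, oocyte and eggshell, germline and meiosis, sperm, DNA replication, ribosomal proteins, heat shock, pals genes, nuclear hormone receptors and homeobox genes. At shares of 0.526% and 0.45% over all genes, 0 calls in lists of this size are no result about them. Their medians ran from -0.34 (moulting) to 0.40 (pals genes), against 0.02 over all genes. Of 23 pals genes, 2 fell at L1, and 9 had a higher and 0 a lower interaction at the unadjusted threshold. Without adult control array 1, 14 of the 716 genes (1.96%) had a negative and 0 a positive interaction, against 1.75% and 0.724% of all genes. They included 5 moulting genes, 4 furrow and body-shape collagens and 3 homeobox genes, with 1 each among guanylyl cyclases, ribosomal proteins and nuclear hormone receptors, where a gene on 2 lists counts under both.

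For some genes of the epidermis and a homeobox gene, whether the interaction was called depended on adult control array 1. The interactions of the collagen genes col-143, col-122, col-176, col-181 and col-141 were called with and without it. The gene noah-1, for an apical matrix protein of the epidermis, read 7.0, 7.24 and 7.47 in adult mutants and 6.97, 9.76 and 10.06 in adult controls. Control array 1 lay below all mutant arrays and the other control arrays more than 2 units above them. Its interaction was -1.91 (SE 0.73, adjusted p = 0.398) with all arrays and -2.89 (adjusted p = 5.7e-05) without that array. The cuticle collagen gene dpy-7 went from -0.69 (adjusted p = 0.601) to -1.12 (adjusted p = 0.00176) and the homeobox gene ceh-43 from -1.39 (adjusted p = 0.107; 0.0135 with the replicate block) to -1.80 (adjusted p = 0.000476).

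Over 16 moulting genes the mean adult signal was 6.52, 6.61 and 6.56 in mutants and 6.44, 7.14 and 7.27 in controls. Without array 1, 5 of them and 4 of 18 furrow and body-shape collagen genes had negative interactions, against 0 and 0 with it (2 lower among the moulting genes and 1 higher among the furrow collagens at an unadjusted limma p of 0.05). Over all genes, 124 were then higher (0.724%) and 300 lower (1.75%), and the adult effect was called for 765 probe sets (3.39%, against 1.02% with all arrays). Of the 167 genes called with all arrays, 163 were also called without array 1. Whether array 1 or the other 2 adult controls hold the usual control state cannot be told apart with 3 arrays.

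**Figure D5:**
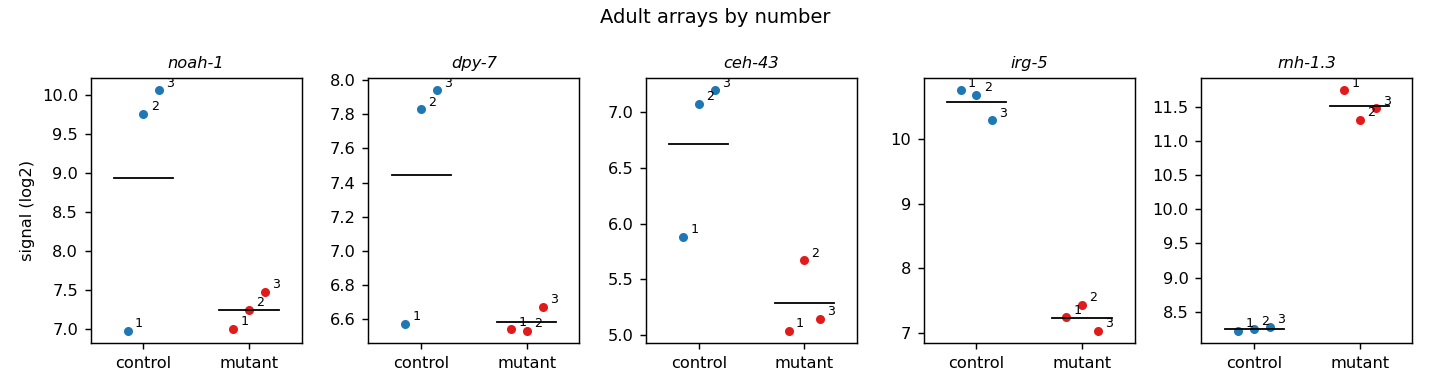
Log2 signal of 5 genes in the adult arrays, numbered by replicate, with the group mean (line); the vertical axes differ between panels and do not start at 0. Control array 1 lies with the mutants for noah-1 and dpy-7, between the groups for ceh-43, and with the controls for irg-5 and rnh-1.3.

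A set of 57 genes had a called interaction of the same sign with all arrays and under every alternative in which they could be tested, apart from the filter that removes dim probe sets. Of these, 22 were bright at both stages, 18 at L1 only, 14 in adults only and 3 at neither. The set holds che-3, ifta-1, xbx-9, col-143, col-176, irg-5, dod-24, K07C11.7, far-3, F59A7.2 and ugt-13 among the genes bright at both stages, although irg-5 had less room at L1 than its adult fall.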

How the data were processed

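Per the labels, total RNA of whole worms was labelled as biotin cRNA and hybridised to Affymetrix arrays, and the replicates are biological. The authors deposited log2 signals per probe set with 2 decimals, read as log2 from their range. How they were background-corrected, summarised and normalized is not given in the sources used here. Quantiles agreed among the arrays of 1 stage but differed between the stages, so a level is compared within a stage only. The 77 control probe sets were left out. Symbols came from the platform annotation: 20766 probe sets had 1 gene, 887 several and 895 none listed, and identifiers of 20701 were found in a RefSeq table. For 17118 genes the probe set of highest mean over all arrays stood for the gene.

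One limma 3.58.1 fit (R 4.3.3, lmFit and eBayes, 4 group means, 14 arrays, 10 residual and 4.18 prior degrees of freedom) gave the L1 effect, the adult effect and the interaction. Two-sided p-values were adjusted (Benjamini-Hochberg) over 22548 probe sets within a contrast, with a threshold of 0.05. Intervals are 95% intervals of that fit, not adjusted for the number of genes, and the number of arrays limits their precision. The fit was run on simulated data with independent noise and with effects added to adult mutants only. Shared deviations of same-numbered arrays and a deviant array were not simulated, so that run does not cover them.

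The members and lists were chosen with earlier results of these data known. The genes named were those with the 10 largest called interactions each way among genes bright at both stages, the 5 largest each way among genes bright at 1 stage, genes with stage calls of opposite sign, up to 4 called genes of each of 35 lists by p (the 2 smallest p where none was called), daf-19 and daf-12. A selection of these is printed, favouring calls kept under the alternatives. Deviations from the group means of same-numbered mutant and control arrays correlated at 0.19 to 0.42 for the 4 numbers at L1. In adults the values were 0.44, 0.11 and 0.04 for numbers 1 to 3. Whether the numbers mark pairs was not tested. The alternatives were a replicate block, joint and per-stage quantile normalization, an equalised spread of signals, trended robust variances, 1 weight per stage, a filter on dim probe sets, a Gapdh 3' minus 5' covariate, other levels counted as bright, and each array left out. No sequences were used here.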

Additional observations from a re-analysis of the deposited data

Results flagged for a closer look

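The interactions listed here are differences between the stages that passed the test of the difference itself. Among ciliary genes and cwp-4 these were che-3 (1.67), ifta-1 (1.31), xbx-9 (1.10), ift-139 (1.03), bbs-1 (1.18), xbx-3 (0.95), che-2 (0.83), osm-5 (0.72), ttll-11 (0.74), jbts-14 (0.59) and cwp-4 (1.86). Among genes bright at L1 only they were C18F10.2 (2.40), ddn-2 (2.35), clec-194 (2.34), nssp-55 (-2.46), clec-10 (-3.21) and Y105C5A.15 (-1.15). Among collagen genes they were col-143 (-4.06), col-176 (2.28), col-142 (2.53), col-20 (-2.24), col-122 (-1.74), col-181 (-1.55) and col-141 (1.30).

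Negative values that came with adult falls were those of T22B7.7 (-5.39), dod-24 (-4.82), irg-5 (-3.59), K07C11.7 (-1.95), dod-22 (-1.77), Y51H7C.1 (-1.77), fbxa-72 (-1.45), vet-6 (-1.34), sdz-30 (-1.25), pes-10 (-1.15) and ugt-4 (-0.93). Positive values that came with adult rises were those of rnh-1.3 (3.22), far-3 (2.72), F49E11.2 (2.23), F59A7.2 (2.12), sdz-24 (2.03) and ugt-64 (1.70). The remaining ones were ugt-13 (2.88), gsto-1 (1.88), R102.2 (1.55), F44A2.3 (1.46), srp-3 (1.43) and glb-1 (1.34).

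Single L1 arrays lay far from the others of their group (Dixon's test at 95%) in 5 groups among the printed genes, 4.81% of the groups examined, which is about the 1 in 20 that chance flags. They were the K07C11.7 signal of 10.63 in control array 1, the T22B7.7 signal of 3.63 in mutant array 2, the ceh-43 signal of 4.87 in control array 2, the dod-24 signal of 7.25 in mutant array 1 and the nssp-55 signal of 8.58 in mutant array 2.

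Outside the genes tested, the Gapdh 3' minus 5' control signal at L1 averaged 3.95 in mutants and 3.62 in controls, a difference of 0.33 (two-sided exact permutation test, p = 0.0571, 4 arrays against 4). Its part in the L1 effects was not tested beyond the covariate below.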

How the results depend on the processing

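All 167 called genes kept the sign of their interaction under every alternative in which they were tested, and of 70 named genes with a called interaction 39 also kept the call and 31 lost it under 1 or more. Values with all arrays stand in brackets. Leaving out 1 array at a time, interactions in probe sets ranged from 49 to 147 higher (105) and from 42 to 415 lower (101), with 38 to 264 bright at both stages (94), and L1 effects from 153 to 331 (257) and adult effects from 103 to 765 (1.02% of probe sets). In genes they ranged from 41 to 124 higher (90) and 30 to 300 lower (77), with 46.2% to 58.8% dim at 1 or both stages (54.5%). Ciliary interactions ranged from 6 to 10 (10), ciliary falls in adults from 0 to 2 (0) and negative early zygotic interactions from 2 to 5 (4).

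With the replicate block the counts were 184 higher, 236 lower, 212 bright at both, 525 at L1, 427 in adults, 163 and 176 genes, and 7 early zygotic genes. With the replicate block at L1 only, chosen after seeing the data, they were 179, 153, 166, 615 at L1 and 158 genes higher. The Gapdh covariate gave 56, 41, 38, 95 at L1, 48 and 28 genes, 14 ciliary falls at L1 and 2 early zygotic genes, and 70 of the 167 calls remained. Among 169 probe sets, those of the named and ciliary genes, the block at both stages added 4 interaction calls and ended 2, and added 13 calls at L1 and 7 in adults and ended 2 at L1. Printed results among them are the interactions of ceh-43 (0.0135), nphp-1 and ifta-2, the L1 effects of glb-1 (0.0615), dod-24 and ugt-64 (0.0276), and the adult effects of ugt-13 and the brighter daf-19 probe set. An equalised spread gave 96 adult effects and 51 genes lower, and 1 weight per stage 401 adult effects. With dim probe sets left out, 44.6% of calls were dim at 1 stage, 5 ciliary interactions, 10 ciliary falls and 2 early zygotic genes remained to be called. Counting all above the lower quartile as bright gave 152 probe sets bright at both and 27.5% dim, and counting the upper tercile 51 and 74.3%. The causes were not tested, except that the filter tests fewer probe sets. Signals near the bottom of a stage's scale limit every statement on a missing fall.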
